A study of Mus musculus with 36 samples.

Results

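The early lymphoid priming genes are 9 genes that hematopoietic progenitors begin to transcribe as they take up a lymphoid program. They were chosen by symbol, as the Ensembl gene identifiers that map to *Dntt*, *Il7r*, *Rag1*, *Rag2*, *Igll1*, *Vpreb1*, *Notch1*, *Satb1* and *Ccr9*, and all 9 were found among the 38887 genes of the count table.

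RNA was sequenced from progenitors sorted out of the bone marrow of *Apoe*-/- mice on a Western diet that carried *Il27ra*, the IL-27 receptor gene, intact, as *Il27ra*+/- or as *Il27ra*-/-, and that were infused for 2 weeks with PBS or with angiotensin II (Ang II), a peptide used to drive abdominal aortic aneurysm. The study asked how IL-27 receptor signaling shapes blood formation under that stress. Each library came from 5000 sorted cells, either long-term hematopoietic stem cells (LT-HSC), the CD150+CD48− fraction of lineage-negative cells with Sca-1 and c-Kit on their surface, or the CD150−CD48+ fraction of the same cells, which the labels call ST-HSC and which is called HPC-1 here. The 3 genotypes are called intact, heterozygous and deficient below, and all of them lack *Apoe*. The receptor deficiency is constitutive, so every cell of the animal carries it.

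There were 17 LT-HSC libraries. With PBS, 1 was intact, 3 were heterozygous and 3 deficient, and with Ang II, 2 were intact, 4 heterozygous and 4 deficient. There were 19 HPC-1 libraries. With PBS, 2 were intact, 3 heterozygous and 3 deficient, and with Ang II, 3 were intact, 4 heterozygous and 4 deficient. The labels give no gender, age or batch, and they say of replicates only that they are separate samples, so p-values measure the spread between these samples. Library totals ran from 1980283 to 6861078 counts with a median of 3139364. In LT-HSC those labelled intact held 1980283 to 2244419 counts, and the heterozygous and deficient ones 2170180 to 6861078. In HPC-1 the intact libraries held 2319520 to 3517996 counts, and the heterozygous and deficient ones 2272026 to 6318379. Depth was thus uneven between genotypes. Levels are given as CPM, a count scaled by edgeR to the TMM-adjusted library total. A count of 3, the floor used for a gene with no count, corresponded to 0.398 CPM in the deepest library and 1.49 CPM in the library with the highest floor, and floors cover counting error only. The SE printed with an edgeR log2 fold change is its absolute value divided by the square root of the F statistic of the test. It was back-calculated in this way and is unreliable where a group had no count or the statistic was very small.

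Lymphoid priming begins before any cell is committed to the B or T lineage. Multipotent progenitors with a high level of the receptor Flt3 start to transcribe genes of antigen receptor assembly, cytokine response and chromatin organization, while the most primitive stem cells hold these genes low. In the bone marrow such primed cells lie in the CD48+ part of the Lin−Sca-1+c-Kit+ gate, and some of them leave for the thymus.

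*Il27ra*, the targeted gene, was read first in every library. In LT-HSC, the Ang II-infused intact libraries held 42.9 and 51.8 CPM, and the library labelled PBS intact held 17.1 CPM. The PBS-infused heterozygous LT-HSC libraries held 42.7, 24.1 and 25.6 CPM, and the Ang II-infused ones 30.2, 25.5, 27.1 and 32.8 CPM. The PBS-infused deficient LT-HSC libraries held 9.42, 6.94 and 16.3 CPM, and the Ang II-infused ones 16.3, 11.7, 16.2 and 19.3 CPM. The library labelled PBS intact therefore lay within the range of the deficient LT-HSC libraries, while the heterozygous and deficient ranges did not overlap. Between Ang II-infused deficient and intact LT-HSC the log2 fold change was −1.56 (SE 0.319, edgeR quasi-likelihood test with Benjamini-Hochberg adjusted p = 0.0195), and the call was lost when the intact replicate 2 or the deficient replicate 3 was left out (adjusted p = 0.0689 and 0.0531 in the same edgeR test) or when only the compared groups were fitted (−1.59, edgeR adjusted p = 0.076). In HPC-1 the gene was low in every genotype, at 6.07 to 11.9 CPM in 5 intact, 5.46 to 16.5 CPM in 7 heterozygous and 4.64 to 11.1 CPM in 7 deficient libraries. These ranges overlap, so genotype labels in HPC-1 cannot be checked by this gene.

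Several LT-HSC libraries stood apart from the others. The library labelled PBS deficient LT-HSC replicate 2 held 670.2 CPM over the 10 LT-HSC marker genes, with *Meis1* the most abundant, where the other LT-HSC libraries held 1502 to 2841 CPM. It held 7386 CPM over the 7 HPC-1 marker genes, led by *Mpo* at 3522 CPM, where the other LT-HSC libraries held 1199 to 4653 CPM and the HPC-1 libraries 6705 to 10860 CPM. *Cd48*, which the LT-HSC gate selects against, was at 62.6 CPM in it, and *Slamf1*, the gene of CD150, was at 2.36 CPM against a median of 44.0 CPM in LT-HSC. The library labelled Ang II deficient LT-HSC replicate 2 held 7238 CPM over the 10 neutrophil and monocyte markers, all of them over the floor and led by *S100a9*, and 1867 CPM over the 8 erythroid markers, led by *Hbb-bs*. The library labelled PBS deficient LT-HSC replicate 3 held 1282 CPM over the neutrophil and monocyte markers, led by *Ngp*, and 1764 CPM over the erythroid markers. The library labelled PBS heterozygous LT-HSC replicate 2 held *Ebf1* at 8.87 CPM, *Pax5* at 1.90 CPM and *Il2ra* at 8.56 CPM, genes of early B and T cell development. Several of the comparisons that use PBS deficient replicate 2 are also given without it.

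The 9 genes lie on 6 chromosomes of mm10 by the GENCODE vM21 annotation. *Dntt* is at chr19:41029275-41059525 on the plus strand, *Satb1* at chr17:51736187-51833290 on the minus strand and *Notch1* at chr2:26457903-26516663 on the minus strand. *Rag1* at chr2:101638282-101649501 and *Rag2* at chr2:101624718-101632529 face each other from opposite strands. *Il7r* is at chr15:9505788-9530176, *Ccr9* at chr9:123678439-123784330, *Igll1* at chr16:16860671-16863985 and *Vpreb1* at chr16:16868403-16870843. The values of *Rag1*, *Notch1*, *Satb1* and *Ccr9* are uncertain to the extent that reads were shared with annotated genes on the same strand that overlap them. For *Notch1* that gene is a microRNA, *Mir6996*. Those of *Vpreb1* are uncertain because it has a near-identical copy, *Vpreb2*.

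On a scale that allows levels to be compared between genes, CPM per kilobase of exon, *Dntt* had the highest median of the 9 in HPC-1, 77.7. *Satb1* followed at 15.0 and *Notch1* at 11.8 CPM per kilobase. *Rag2* at 0.772, *Il7r* at 0.489, *Ccr9* at 0.146 and *Rag1* at 0.0733 CPM per kilobase were far lower, and *Igll1* and *Vpreb1* had medians of 0. In LT-HSC the order was different, with *Notch1* first at 6.57 CPM per kilobase, *Satb1* at 0.659, *Ccr9* at 0.173 and *Dntt* at 0.163, and the other 5 genes at medians of 0. The levels per library of the 6 genes with a called difference between the cell types are plotted by group.

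**Figure D1:**
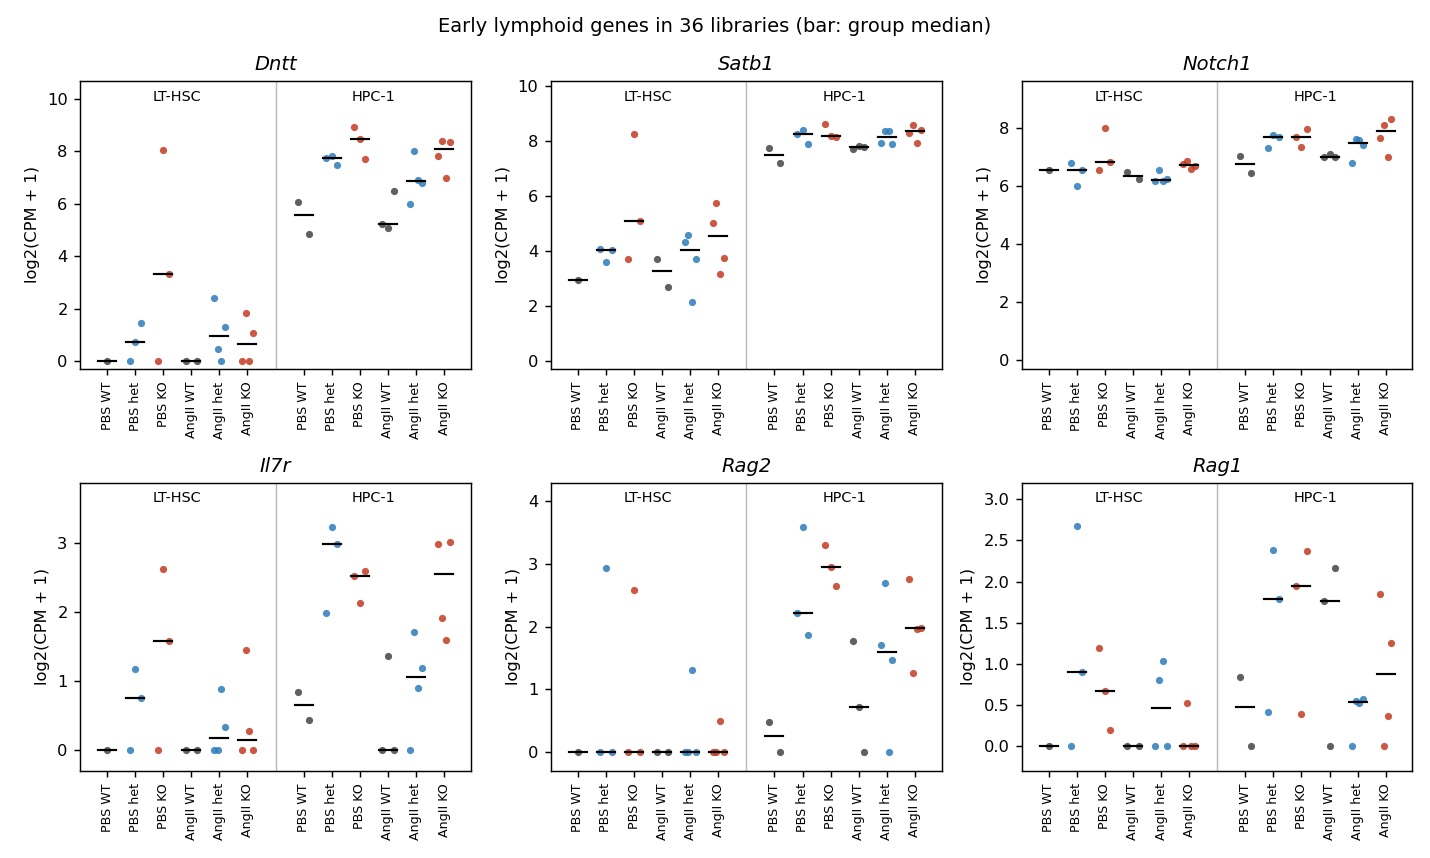
Level of *Dntt*, *Satb1*, *Notch1*, *Il7r*, *Rag2* and *Rag1* in each of 36 libraries, as log2(CPM + 1) on the vertical axis, by cell type, infusion and genotype on the horizontal axis (WT, intact; het, heterozygous; KO, deficient). Each point is 1 library and each bar a group median. In HPC-1, *Dntt* ran from 28.0 to 484 CPM, and in LT-HSC the library labelled PBS deficient replicate 2 stood at 260.2 CPM while the others were at or under 9.03 CPM.

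The first comparison asked how the cell types differ in these genes. *Dntt*, *Satb1*, *Notch1*, *Rag2*, *Il7r* and *Rag1* were higher in HPC-1 than in LT-HSC, averaged over the 5 conditions with at least 2 libraries of both cell types, and *Ccr9* did not pass the test. The 7 of 9 genes that could be tested thus gave 6 calls by edgeR, beside 36.3% of 18013 genes called in the same comparison, 3323 of them higher (18.4%) and 3220 lower (17.9%) in HPC-1. Their median log2 fold change was 2.63, or 2.27 without the Ang II-infused intact condition, in which *Dntt*, *Il7r*, *Rag1* and *Rag2* had no count in LT-HSC. The median over all genes tested was −0.03, or −0.09 without that condition. *Igll1* and *Vpreb1* were too low to be tested. The filter on low counts asks for a high enough level in as many libraries as the smallest group holds. That group, PBS intact LT-HSC, has 1 library, so 1 library can keep a gene. These calls therefore do not describe all 9 genes. In sorted bulk samples fewer cells that transcribe a gene and less RNA per cell cannot be told apart.

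*Dntt* encodes terminal deoxynucleotidyl transferase, the polymerase that adds untemplated nucleotides at the joints of rearranging antigen receptor genes. In PBS-infused LT-HSC it was at 0 CPM in the library labelled intact, at 0, 0.634 and 1.73 CPM in the heterozygous and at 0, 260.2 and 9.03 CPM in the deficient libraries. In Ang II-infused LT-HSC it was at 0 CPM in both intact libraries, at 4.24, 0.374, 0 and 1.46 CPM in the heterozygous and at 0, 2.59, 0 and 1.10 CPM in the deficient libraries. PBS deficient replicate 2 held 1763 counts of the gene, PBS deficient replicate 3 held 63, and every other LT-HSC library was at 4.24 CPM or less. In PBS-infused HPC-1 it was at 65.3 and 28.0 CPM in the intact, at 210.4, 224 and 178 CPM in the heterozygous and at 484, 353 and 209 CPM in the deficient libraries. In Ang II-infused HPC-1 it was at 36.8, 32.4 and 89.3 CPM in the intact, at 62.3, 256, 119.9 and 110.3 CPM in the heterozygous and at 225, 334, 125 and 324 CPM in the deficient libraries. Every HPC-1 library lay above every LT-HSC library but PBS deficient replicate 2. The log2 fold change between the cell types was 7.004 (SE 0.754, edgeR quasi-likelihood test with Benjamini-Hochberg adjusted p = 7.86e-08). It was 7.93 when the library labelled PBS intact and the replicates 2 of PBS deficient and of Ang II deficient LT-HSC were left out, and 6.11 without the Ang II-infused intact condition. Against the LT-HSC libraries at 0, taken at the floor of 3 counts in each library, *Dntt* in HPC-1 was at least 36-fold higher in Ang II-infused intact mice. With PBS it was at least 32.7-fold higher in the libraries labelled intact, where LT-HSC had 1 library, with *Il27ra* in the deficient range.

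*Satb1* encodes a chromatin organizer that lymphoid-primed progenitors use to set up lymphocyte gene programs. In PBS-infused LT-HSC it was at 6.66 CPM in the library labelled intact, at 16.0, 11.1 and 15.4 CPM in the heterozygous and at 11.99, 304 and 33.1 CPM in the deficient libraries. In Ang II-infused LT-HSC it was at 12.04 and 5.48 CPM in the intact, at 18.9, 22.8, 3.36 and 12.2 CPM in the heterozygous and at 31.8, 53.1, 7.98 and 12.5 CPM in the deficient libraries. The highest values came from the replicates 2 of the 2 deficient groups, which are among the libraries described above. In PBS-infused HPC-1 it was at 215 and 147 CPM in the intact, at 303, 338 and 238 CPM in the heterozygous and at 392, 295 and 285 CPM in the deficient libraries. In Ang II-infused HPC-1 it was at 207, 227 and 221 CPM in the intact, at 245, 329.9, 330.2 and 236 CPM in the heterozygous and at 315, 381, 245 and 339.6 CPM in the deficient libraries. HPC-1 and LT-HSC did not overlap apart from PBS deficient LT-HSC replicate 2, which lay among the HPC-1 libraries. The log2 fold change was 3.70 (SE 0.373, edgeR quasi-likelihood test with Benjamini-Hochberg adjusted p = 2.02e-08), or 4.16 without that library.

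*Notch1* encodes the receptor through which ligands in the thymus commit progenitors to the T lineage. It was well above the floor in both cell types. In PBS-infused LT-HSC it was at 93.7 CPM in the library labelled intact, at 110.3, 63.1 and 93.3 CPM in the heterozygous and at 92.1, 253 and 112 CPM in the deficient libraries. In Ang II-infused LT-HSC it was at 87.6 and 74.2 CPM in the intact, at 71.7, 93.6, 72.0 and 75.3 CPM in the heterozygous and at 108, 114, 94.3 and 102 CPM in the deficient libraries. PBS deficient replicate 2 was the highest LT-HSC library. In PBS-infused HPC-1 it was at 129 and 87.3 CPM in the intact, at 158, 217 and 204 CPM in the heterozygous and at 203, 162 and 249.7 CPM in the deficient libraries. In Ang II-infused HPC-1 it was at 127, 138 and 127 CPM in the intact, at 111, 195, 189.8 and 168 CPM in the heterozygous and at 200.4, 275, 126 and 318 CPM in the deficient libraries. The cell types overlapped, and the difference was small, with a log2 fold change of 0.89 (SE 0.129, edgeR quasi-likelihood test with Benjamini-Hochberg adjusted p = 1.21e-06).

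*Rag1* and *Rag2* encode the recombinase that cuts antigen receptor genes at their recombination signals, and both were close to the floor. *Rag2* had no count in 13 of 17 LT-HSC libraries. The other 4 were PBS heterozygous replicate 2 at 6.66 CPM, PBS deficient replicate 2 at 5.02 CPM, Ang II heterozygous replicate 3 at 1.47 CPM and Ang II deficient replicate 3 at 0.409 CPM, so its LT-HSC signal came mainly from the libraries that stood apart. In PBS-infused HPC-1 *Rag2* was at 0.393 and 0 CPM in the intact, at 3.64, 11.1 and 2.64 CPM in the heterozygous and at 8.92, 6.77 and 5.28 CPM in the deficient libraries. In Ang II-infused HPC-1 it was at 2.40, 0.634 and 0 CPM in the intact, at 2.27, 5.48, 0 and 1.78 CPM in the heterozygous and at 5.77, 1.39, 2.90 and 2.95 CPM in the deficient libraries. The cell types overlapped, with the 2 highest LT-HSC libraries above the HPC-1 median of 2.64 CPM, and the log2 fold change was 3.04 (SE 0.841, edgeR quasi-likelihood test with Benjamini-Hochberg adjusted p = 3.94e-03), or 4.25 without PBS heterozygous LT-HSC replicate 2 and 2.55 without the Ang II-infused intact condition. *Rag1* ran from 0 to 5.39 CPM in LT-HSC, with PBS heterozygous replicate 2 the highest, and from 0 to 4.23 CPM in HPC-1, where 8 of 19 libraries held more than 3 counts. Its log2 fold change was 2.20 (SE 0.82, edgeR quasi-likelihood test with Benjamini-Hochberg adjusted p = 0.0322). That call was lost without the Ang II-infused intact condition, in which LT-HSC had no count of it (1.28, adjusted p = 0.188 by edgeR), with a replicate block (2.16, adjusted p = 0.099 by edgeR), and when each of 5 LT-HSC libraries was left out, namely PBS heterozygous replicate 3, PBS deficient replicate 3, either Ang II intact replicate or Ang II deficient replicate 4 (adjusted p = 0.0528, 0.0522, 0.0775, 0.0746 and 0.0542 by edgeR).

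*Il7r* encodes the IL-7 receptor alpha chain, which lymphoid progenitors need to respond to IL-7. In LT-HSC it ran from 0 to 5.17 CPM, with PBS deficient replicate 2 the highest and PBS deficient replicate 3 next at 2.01 CPM. In PBS-infused HPC-1 it was at 0.787 and 0.350 CPM in the intact, at 2.98, 8.46 and 6.92 CPM in the heterozygous and at 4.78, 3.39 and 5.06 CPM in the deficient libraries. In Ang II-infused HPC-1 it was at 0, 1.59 and 0 CPM in the intact, at 0, 2.28, 0.869 and 1.29 CPM in the heterozygous and at 6.92, 2.78, 2.03 and 7.08 CPM in the deficient libraries. The intact HPC-1 libraries lay in the range of LT-HSC, and 11 of the 14 others lay above every LT-HSC library but PBS deficient replicate 2. The log2 fold change between the cell types was 2.63 (SE 0.718, edgeR quasi-likelihood test with Benjamini-Hochberg adjusted p = 3.21e-03).

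*Ccr9* encodes a chemokine receptor that guides progenitors to the thymus and is also used by plasmacytoid dendritic cells. It ran from 0 to 7.77 CPM in LT-HSC (median 1.77) and from 0 to 9.85 CPM in HPC-1 (median 1.497), and the cell types overlapped throughout. The log2 fold change was 0.04 (SE 0.423, edgeR quasi-likelihood test with Benjamini-Hochberg adjusted p = 1.0), and its sign turned under several other settings, so no direction is given.

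*Igll1* and *Vpreb1* encode the surrogate light chain of the pre-B cell receptor and mark cells on the B lineage. *Igll1* had no count in 15 of 19 HPC-1 libraries and 7 counts in HPC-1 altogether, and its highest library was PBS heterozygous LT-HSC replicate 2 with 5 counts. *Vpreb1* had 18 counts in HPC-1 altogether, 9 of them in PBS deficient replicate 2. In LT-HSC its highest count, also 9, was in Ang II deficient replicate 4. Apart from *Vpreb1* in PBS-infused deficient HPC-1, at a mean of 1.03 CPM that came mainly from replicate 2, group means were at or under the floor, and neither gene could be tested between the cell types.

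Markers of mature lymphocytes were low in both cell types. Of the mature B cell and plasma cell list, 9 of 10 genes were in the table, and their summed level ran from 8.64 to 68.4 CPM per library. *Cd79b*, with a median of 13.1 CPM, was its most abundant gene in most HPC-1 libraries, while *Cd79a*, *Ms4a1* and *Mzb1* had medians of 0 in both cell types. The 10 genes of the T cell and NK cell list summed to 3.48 to 45.2 CPM. *Nkg7* led it in most HPC-1 libraries, with a median of 30.6 CPM, and *Cd3d*, *Cd3e*, *Cd3g* and *Trbc2* had medians of 0. The plasmacytoid dendritic cell list, which shares *Ccr9* with the 9 genes, summed to 349 to 709.9 CPM, mostly from *Ptprs*, *Runx2* and *Irf8*. Of its other genes, *Bst2* had a median of 18.25 CPM in HPC-1, over the floor in all 19 libraries, *Cox6a2* of 1.36 CPM, *Siglech* of 0.317 CPM and *Ly6d* of 0.

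Within single conditions the calls were fewer. In PBS-infused heterozygous mice 3 of 7 genes, *Dntt*, *Satb1* and *Notch1*, were called higher in HPC-1, beside 7.67% of all genes. The log2 fold change of *Dntt* was 7.58 (adjusted p = 0.00357), that of *Satb1* 4.37 (adjusted p = 0.00300) and that of *Notch1* 1.12 (adjusted p = 0.0173, all by edgeR), and the *Notch1* call was lost without LT-HSC replicate 2 (0.917, adjusted p = 0.11 by edgeR) or replicate 3 (1.13, adjusted p = 0.0708 by edgeR). In PBS-infused deficient mice edgeR called 0 of 7 genes, beside 0.883% of all genes. Of the 7, 1 was at an unadjusted p under 0.05 and 0 were called by DESeq2 and by limma-voom, and of all genes 1948 were at an unadjusted p under 0.05, with 447 calls by DESeq2 and 0 by limma-voom. *Dntt* there had a log2 fold change of 1.93 (edgeR adjusted p = 0.502), and *Satb1* of 1.46 (edgeR adjusted p = 0.462). Without the library labelled PBS deficient LT-HSC replicate 2, 4 of the genes were called by edgeR, beside 6.48% of all genes in that refit, *Dntt* at 5.95 (adjusted p = 5.09e-04), *Satb1* at 3.77 (adjusted p = 6.65e-04), *Notch1* at 0.98 (adjusted p = 0.0235) and *Rag2*.

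In Ang II-infused intact mice 2 of 7 genes, *Dntt* and *Satb1*, were called higher in HPC-1, beside 10.4% of all genes. The LT-HSC libraries of that condition had no count of *Dntt*, so its fitted fold change depends on the prior count, and the edgeR adjusted p was 0.0337. *Satb1* had a log2 fold change of 4.63 (edgeR adjusted p = 0.00581). The *Dntt* call was lost with a replicate block (edgeR adjusted p = 0.171) and by limma-voom (adjusted p = 0.111), and that of *Satb1* by limma-voom (4.70, adjusted p = 0.104). Leaving out either LT-HSC library leaves 1, so that the spread comes from other groups, and the edgeR adjusted p of *Dntt* was then 0.161 or 0.145, while that of *Satb1* was 0.0698 without replicate 2. In Ang II-infused heterozygous mice *Dntt*, *Satb1* and *Notch1* were called, 3 of 7 genes beside 14.9% of all genes, with log2 fold changes of 6.72, 4.38 and 1.09 (edgeR adjusted p = 5.96e-04, 1.99e-04 and 0.00331). In Ang II-infused deficient mice the same count of 3 of 7 was reached, beside 12.5% of all genes, and *Dntt*, *Satb1* and *Notch1* had log2 fold changes of 8.204, 3.66 and 1.138 (edgeR adjusted p = 2.5e-04, 8.72e-04 and 0.00264).

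Whether the cell type difference itself varied with infusion or genotype was tested in the same model. For Ang II against PBS, averaged over heterozygous and deficient mice, edgeR called 0% of all genes and 0 of 7 early lymphoid genes, with 511 genes at an unadjusted p under 0.05 and 0 calls by DESeq2 and by limma-voom. For deficient against heterozygous mice, edgeR called 0% of all genes and 0 of 7 early lymphoid genes, with 802 genes at an unadjusted p under 0.05, 8 calls by DESeq2 and 0 by limma-voom. Without PBS deficient LT-HSC replicate 2 both of these called 0% of all genes and 0 of the 7. *Satb1*, the only 1 of the 7 at an unadjusted p under 0.05, then went from −1.81 (SE 0.687) to −0.65 (SE 0.504) in the change between deficient and heterozygous mice. *Dntt* went from −2.08 (SE 1.39) to −0.06 (SE 0.876) in that change and from 2.71 (SE 1.42) to 0.71 (SE 0.967) in the change between infusions. *Notch1* was at −0.33 (SE 0.272) and −0.04 (SE 0.232) in the first of these and at 0.34 (SE 0.272) and 0.07 (SE 0.233) in the other. Without the filter on low counts, and with PBS deficient replicate 2 included, edgeR called *Dntt* and *Satb1* in both changes. This was beside 113 of all genes for the change between infusions and 159 for that between genotypes. By the filtered test, conditions with a call and conditions without one are thus not shown to differ.

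Genes that accompany these 9 in early lymphoid progenitors differed in both directions between the cell types. In the list of lymphoid priming genes 12 of 13 were tested, 6 were higher and 3 lower in HPC-1, and 3 did not pass the test, beside 18.4% of all genes higher and 17.9% lower, with a median log2 fold change of 0.878 over the 12 (0.892 without the Ang II-infused intact condition). *Irf8*, a factor of dendritic, monocyte and B cell fates, had a log2 fold change of 4.08 (SE 0.517). *Ighm*, whose unrearranged locus gives a transcript in progenitors, had 3.48 (SE 0.627). *Flt3*, the cytokine receptor that marks lymphoid-primed multipotent progenitors, had 2.93 (SE 0.374), with a median of 341 CPM in HPC-1 and 30.6 CPM in LT-HSC. The 3 lower genes, named after their values were seen, were *Ltb* at −1.99 (SE 0.339), *Mef2c* at −0.65 (SE 0.0865) and *Bcl11a* at −0.65 (SE 0.108). *Flt3* also belongs to the HPC-1 markers, and *Irf8* to those of plasmacytoid dendritic cells.

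Genes of later B and T lineage steps were mostly absent or mixed. Of 14 early B lineage genes 5 were tested, 1 was higher and 1 lower in HPC-1 and 3 did not pass the test, beside 18.4% of all genes higher and 17.9% lower. *Tcf3*, the E protein needed to start the B program, was higher in HPC-1 at 0.32 (SE 0.0874), while *Foxo1*, a factor that acts with it, was lower at −1.37 (SE 0.198). *Ebf1* and *Il2ra*, which is also on the T lineage list, had no usable estimate over the 5 conditions (SE 1680 and 538), so the list median of −0.238 is not determined, and without the Ang II-infused intact condition it was −0.989. Of 10 early T lineage genes 6 were tested, 2 were higher, 1 was lower and 3 did not pass the test, with a median of 0.62 without that condition. *Tcf7*, the factor that starts the T program downstream of Notch, was higher at 2.89 (SE 0.55), and *Gata3*, also expressed in stem cells, was lower at −1.94 (SE 0.249). *Thy1* was higher at 1.03 (SE 0.389, edgeR adjusted p = 0.0349), a call lost without the Ang II-infused intact condition (0.90, edgeR adjusted p = 0.0856) and when each of 9 LT-HSC libraries was left out, with the highest edgeR adjusted p, 0.106, without Ang II intact replicate 1. The other 8 were PBS heterozygous replicates 2 and 3, PBS deficient replicate 1, Ang II heterozygous replicates 2, 3 and 4 and Ang II deficient replicates 3 and 4.

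The genes around *Notch1* differed in both directions. Of 25 other Notch pathway genes 24 were tested, 3 were higher and 9 lower in HPC-1 and 12 did not pass the test, beside 18.4% of all genes higher and 17.9% lower. Their median was −0.157 (−0.101 without the Ang II-infused intact condition), with *Dtx1* and *Heyl* not usably estimated over the 5 conditions (SE 2190 and 1800). *Hes1*, a direct target of Notch signaling, was lower at −3.80 (SE 0.71) and *Nrarp*, a target that feeds back on the pathway, at −2.35 (SE 0.411). *Notch3*, another receptor, was lower at −2.74 (SE 0.443) and *Maml2*, a coactivator, at −1.004 (SE 0.164). *Hes1* had a median of 0 CPM in HPC-1 and 2.22 CPM in LT-HSC, and the refit without Ang II intact LT-HSC replicate 2 gave no usable estimate of it (SE 5740).

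Of the genes that act with *Il7r*, all 10 were tested, 1 was higher and 5 lower in HPC-1 and 4 did not pass the test, beside 18.4% of all genes higher and 17.9% lower, with a median of −0.28 (−0.26 without the Ang II-infused intact condition). *Cish*, a feedback inhibitor induced by STAT5, was lower at −3.01 (SE 0.28) and *Il7*, the ligand, at −2.11 (SE 0.525), where the refit without Ang II intact LT-HSC replicate 1 gave no usable estimate (SE 24.2). The kinases *Jak3* and *Jak1* were lower by small amounts, at −0.39 (SE 0.096) and −0.29 (SE 0.0742).

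Of the 11 genes that act with *Rag1* and *Rag2*, as cofactors of the cut or in joining its ends, all were tested, 6 were higher and 2 lower in HPC-1, beside 18.4% of all genes higher and 17.9% lower, with a median of 0.377 against −0.0265 over all genes (0.188 against −0.0941 without the Ang II-infused intact condition). *Polm*, a polymerase related to *Dntt*, was lower at −2.31 (SE 0.525), and *Xrcc5*, which encodes the Ku80 subunit of the end-binding complex, at −0.77 (SE 0.145). *Hmgb2*, a DNA-bending cofactor of the recombinase, was higher at 0.93 (SE 0.189). *Lig4*, the ligase of end joining, was higher at 1.28 (SE 0.34), a call lost without the Ang II-infused intact condition (0.19, edgeR adjusted p = 0.713). Of the 5 thymus homing genes 3 were higher and 2 did not pass the test, beside 18.4% of all genes higher, with a median of 0.932 without that condition. Over the 5 conditions the median, 0.964, is the value of *Ccr7*, which had no usable estimate (SE 1640). The 3 were the chemokine receptor *Cxcr4* at 1.12 (SE 0.195), the P-selectin ligand *Selplg* at 1.09 (SE 0.146) and the integrin *Itga4* at 0.56 (SE 0.0688). The plot of cell type differences sets these genes beside the early lymphoid genes.

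**Figure D2:**
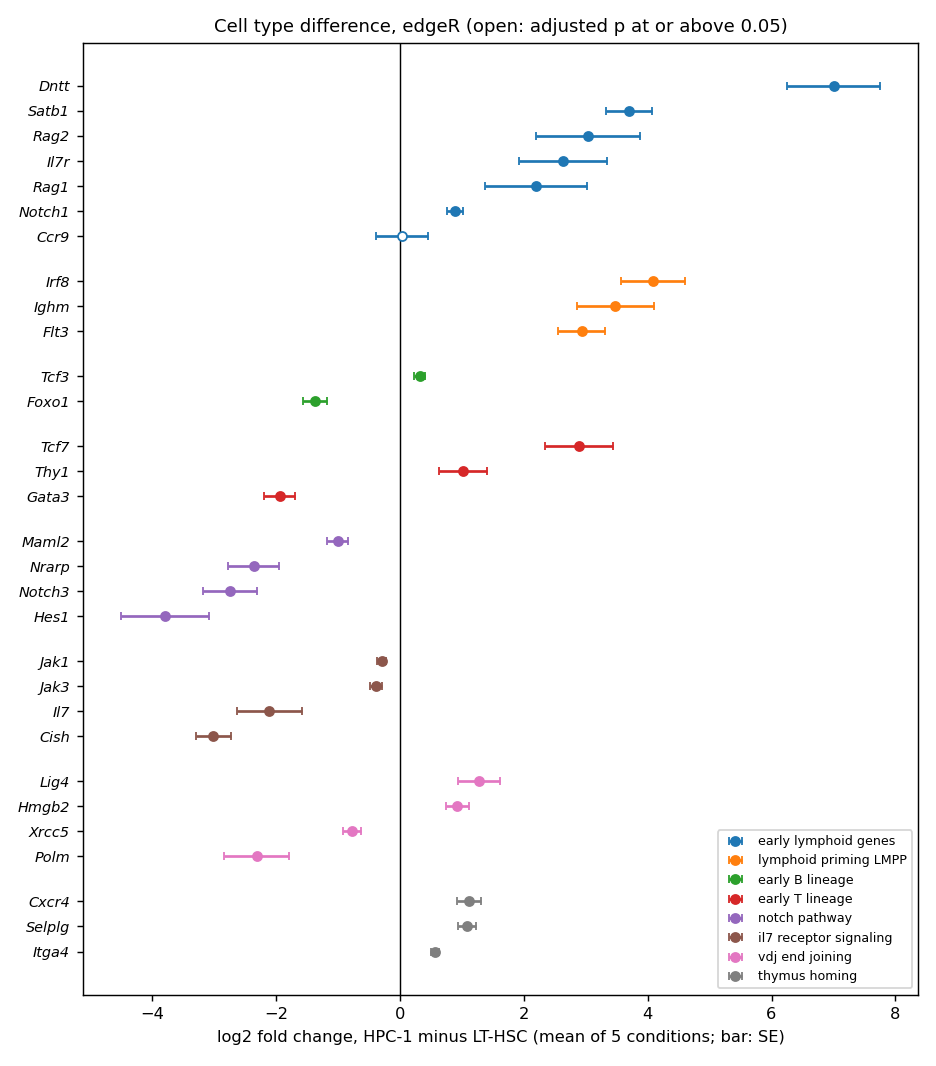
Log2 fold change of HPC-1 over LT-HSC, the mean of 5 conditions, on the horizontal axis, for the 7 tested early lymphoid genes and for named genes of 7 lists. Points are edgeR estimates, bars their SE as back-calculated from the F statistic, and the open point (*Ccr9*) did not pass the test. *Dntt* lies furthest to the right of the genes drawn, at 7.004, and *Hes1* furthest to the left, at −3.80.

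Within LT-HSC no early lymphoid gene passed the filtered edgeR test between genotypes. Without the filter on low counts edgeR called *Satb1* between Ang II-infused deficient and intact libraries, *Dntt* and *Satb1* between PBS-infused deficient and heterozygous ones, and *Dntt*, *Notch1* and *Satb1* between deficient and heterozygous ones over both infusions, beside 833, 193 and 361 of all genes. Deficient against intact Ang II-infused libraries gave 277 calls among 16365 genes (1.69%) and 0 of the 7 early lymphoid genes by edgeR, DESeq2 and limma-voom, with 0 of the 7 at an unadjusted p under 0.05. Heterozygous against intact Ang II-infused libraries, which share those intact libraries with the comparison before, gave 136 calls (0.831%) and 0 of 7 by the same tools, again with 0 of the 7 at an unadjusted p under 0.05. The median log2 fold change over all genes was 0.138 in the first of these and 0.0924 in the other. Deficient against heterozygous libraries gave 0% of all genes with Ang II (426 at an unadjusted p under 0.05, 2 calls by DESeq2 and 0 by limma-voom), with 0 of the 7 genes called. With PBS the same comparison gave 0% of all genes (653 at an unadjusted p under 0.05, 1 call by DESeq2 and 0 by limma-voom), again with 0 of the 7 called. Averaged over both infusions it gave 1 gene or 0.00611% (777 at an unadjusted p under 0.05, 25 calls by DESeq2 and 2 by limma-voom), and that gene was not among the 7. *Dntt*, *Notch1* and *Satb1* were at an unadjusted p under 0.05 between PBS-infused deficient and heterozygous LT-HSC, with log2 fold changes of 6.48 (SE 2.09), 0.79 (SE 0.287) and 3.05 (SE 1.13), values that rest on the library labelled PBS deficient replicate 2. Without it they were 2.37 (SE 1.78), 0.21 (SE 0.213) and 0.69 (SE 0.8). That refit keeps PBS deficient replicate 3, which also stood apart, at 9.03 CPM of *Dntt* and 33.1 CPM of *Satb1*. Replicate 1 was at 0 and 11.99 CPM, and no refit left out both replicates 2 and 3. Averaged over both infusions *Notch1* and *Satb1* were at an unadjusted p under 0.05, with 0.61 (SE 0.19) and 1.975 (SE 0.737). Without PBS deficient replicate 2 they were 0.32 (SE 0.135, edgeR unadjusted p = 0.0291) and 0.795 (SE 0.511, edgeR unadjusted p = 0.144), with an edgeR adjusted p of 1 for both.

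Ang II was compared with PBS within LT-HSC where both infusions had at least 2 libraries. In heterozygous mice edgeR called 0% of all genes and 0 of the 7, with 806 genes at an unadjusted p under 0.05 and 0 calls by DESeq2 and by limma-voom. In deficient mice it called 0% of all genes and 0 of the 7, with 150 genes at an unadjusted p under 0.05, 1 call by DESeq2 and 0 by limma-voom. Of the 7, *Dntt*, *Notch1* and *Satb1* were among these 150, at −6.73 (SE 1.88), −0.56 (SE 0.265) and −2.195 (SE 0.983), and without PBS deficient replicate 2 they were at −2.35 (SE 1.65), 0.03 (SE 0.202) and 0.18 (SE 0.762). Averaged over both genotypes it called 0% of all genes and 0 of the 7, with 463 genes at an unadjusted p under 0.05, 1 call by DESeq2 and 0 by limma-voom.

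Within HPC-1 the comparison of genotypes asked how these genes differ with loss of the receptor, and *Dntt* was the early lymphoid gene that passed the test. Over both infusions its level was 50.4 ± 26.2 CPM (SD, n = 5) in intact, 166 ± 70.3 CPM (SD, n = 7) in heterozygous and 293 ± 117 CPM (SD, n = 7) in deficient libraries. The ranges were 28.0 to 89.3 CPM, 62.3 to 256 CPM and 125 to 484 CPM, so that all 7 deficient libraries lay above all 5 intact ones, while the heterozygous libraries overlapped both neighbors. Deficient against intact, averaged over PBS and Ang II, gave a log2 fold change of 2.57 (SE 0.448, edgeR quasi-likelihood test with Benjamini-Hochberg adjusted p = 0.0385). This was 1 of 7 early lymphoid genes called, beside 0.167% of 13199 genes, 22 in number, of which 7 were higher and 15 lower in deficient HPC-1, and *Dntt* ranked 19 of the 22 by p.

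The size of that difference held within narrow limits and its call did not. Over the alternative settings the log2 fold change ran from 2.51 to 2.65, with adjusted p from 3.22e-06 to 0.0919. Leaving out each of the 12 libraries in turn gave 2.35 to 2.95, and the edgeR adjusted p stayed under 0.05 in 3 of the 12 refits and passed it in 9. Those 9 were without PBS intact replicates 1 and 2 (0.107 and 0.425), PBS deficient replicates 1 and 2 (0.133 and 0.0841), Ang II intact replicates 1 and 2 (0.094 and 0.0833) and Ang II deficient replicates 1, 2 and 4 (0.0824, 0.067 and 0.0819, all edgeR adjusted p). Fitting only the 4 groups of the comparison also lost the call (2.60, edgeR adjusted p = 0.0876), as did a replicate block (2.53, edgeR adjusted p = 0.0919).

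*Satb1* and *Notch1* were close to the threshold in the same comparison. *Satb1* was at 204 ± 32.3 CPM (SD, n = 5) in intact, 289 ± 47.0 CPM (SD, n = 7) in heterozygous and 322 ± 52.8 CPM (SD, n = 7) in deficient HPC-1, and its intact range of 147 to 227 CPM did not overlap the ranges of 236 to 338 CPM and 245 to 392 CPM of the others. Its log2 fold change between deficient and intact was 0.68 (SE 0.151, edgeR quasi-likelihood test with Benjamini-Hochberg adjusted p = 0.0646). It passed the threshold under several other settings, among them DESeq2 (0.69, adjusted p = 0.00353), limma-voom (0.67, adjusted p = 0.0492) and a replicate block (0.723, edgeR adjusted p = 0.0347). *Notch1* was at 122 ± 19.7 CPM (SD, n = 5), 177 ± 35.4 CPM (SD, n = 7) and 219 ± 66.3 CPM (SD, n = 7), with overlapping ranges. Its log2 fold change was 0.86 (SE 0.198, edgeR adjusted p = 0.0926). It passed the threshold with DESeq2 (0.87, adjusted p = 0.00815), without a filter (edgeR adjusted p = 1.64e-05) and without Ang II deficient replicate 3 (0.97, edgeR adjusted p = 0.0155), and the highest adjusted p of the alternatives was 0.135, with limma-voom.

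The low genes were also numerically higher in deficient than in intact HPC-1 and did not pass the edgeR test. *Il7r* ran from 0 to 1.59 CPM in intact and from 2.03 to 7.08 CPM in deficient libraries, with a log2 fold change of 2.94 (SE 0.89, edgeR adjusted p = 0.264), and DESeq2 called it (3.04, adjusted p = 0.0295). These ranges do not overlap, but the 5 intact libraries held at most 5 counts each. *Rag2* ran from 0 to 2.40 CPM in intact and from 1.39 to 8.92 CPM in deficient libraries (3.26, SE 0.97, edgeR adjusted p = 0.244), and *Rag1* and *Ccr9* had edgeR adjusted p of 0.866 and 0.607. *Flt3*, of the lymphoid priming list, was at 208 ± 70.2 CPM (SD, n = 5) in intact and 441 ± 128 CPM (SD, n = 7) in deficient libraries (1.18, SE 0.259, edgeR adjusted p = 0.0926). *Flt3* passed with DESeq2 (1.19, adjusted p = 2.99e-04), without a filter (edgeR adjusted p = 2.12e-04) and without PBS intact replicate 1 (1.58, edgeR adjusted p = 0.0435) or Ang II deficient replicate 3 (1.28, edgeR adjusted p = 0.0315). No gene of the 7 lists passed the test by edgeR in this comparison, and the median over the 12 tested lymphoid priming genes, of which 5 were at an unadjusted p under 0.05, was 0.395 against 0.00802 over all genes. Of all 13199 genes tested, 1161 were at an unadjusted p under 0.05 by edgeR.

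Levels of markers of other cells were also read by genotype, without a test. Those of intestinal epithelium were higher in each intact HPC-1 library than in any other HPC-1 library. The 14 genes of the intestinal epithelium list summed to 103, 93.9, 129.9, 111 and 332 CPM in the intact HPC-1 libraries and to 35.8 to 91.7 CPM in the heterozygous and deficient ones. In LT-HSC they summed to 340.5, 533 and 595 CPM in the libraries labelled intact and to 35.7 to 127 CPM in the others. *Krt18* was the most abundant gene of the list in 4 of the 5 intact HPC-1 libraries and *Dmbt1*, at 70.2 CPM, in Ang II intact replicate 3. In those 5 libraries 13 or 14 of the 14 genes had a count, and *Agr2* of that list was among the 15 genes called lower in deficient HPC-1. The 7 HPC-1 markers summed to 7846 to 10860 CPM in intact and to 6705 to 10670 CPM in deficient HPC-1. With PBS, *Mpo* of that list was at 5502 and 5997 CPM in intact and at 2205, 2438 and 4348 CPM in deficient HPC-1, and with Ang II it overlapped, at 4118, 5364 and 5638 CPM and at 5169, 4512, 6035 and 3362 CPM. The 10 neutrophil and monocyte markers, led by *Ctsg* or *Prtn3*, summed to 682.6 and 986 CPM in intact (8 and 10 of 10 genes over the floor) and to 266, 258 and 637 CPM in deficient HPC-1 with PBS (5, 5 and 7 of 10). With Ang II they overlapped, at 525.9 to 881 CPM and 549 to 1188 CPM, with the higher mean in deficient HPC-1 (722.4 and 871.8 CPM). The 8 erythroid markers, of which *Car1* had the highest median in HPC-1, summed to 49.2 and 174 CPM in intact and to 26.8, 40.0 and 40.7 CPM in deficient HPC-1 with PBS. With Ang II these sums overlapped, at 95.8 to 177 CPM and 20.8 to 373 CPM, with the higher mean in deficient HPC-1 (127.3 and 168.4 CPM). The most abundant erythroid marker in Ang II deficient HPC-1 replicate 2 was *Hbb-bs*, at 174.6 CPM. The part of these other markers in the *Dntt* difference was not tested.

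By infusion, deficient against intact HPC-1 gave 2 calls or 0.0152% of all genes with PBS, and 0 of the 7 early lymphoid genes by edgeR, with 5 of the 7 at an unadjusted p under 0.05, 1 of the 7 (*Dntt*) called by DESeq2 and 0 by limma-voom. Of all genes, 865 were at an unadjusted p under 0.05, with 25 calls by DESeq2 and 3 by limma-voom. *Dntt* there had a log2 fold change of 2.91 (SE 0.696, edgeR adjusted p = 0.44). With Ang II the comparison gave 0% of all genes by edgeR, with 661 at an unadjusted p under 0.05, 2 calls by DESeq2 and 0 by limma-voom, and 0 of the 7 genes called by any of these. Of the 7, 4 were at an unadjusted p under 0.05 by edgeR. *Dntt* had 2.24 (SE 0.557, edgeR adjusted p = 0.7), and the deficient libraries lay above the intact ones with each infusion.

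Heterozygous against intact HPC-1 used the same intact libraries, so its values are not independent of those above. Averaged over both infusions it gave 0% of all genes by edgeR (948 at an unadjusted p under 0.05, 27 calls by DESeq2 and 21 by limma-voom) and 0 of the 7 genes, of which DESeq2 called *Dntt*. The log2 fold change of *Dntt* was 1.74 (SE 0.432, edgeR adjusted p = 0.292), that of *Satb1* 0.53 (SE 0.15, edgeR adjusted p = 0.353) and that of *Notch1* 0.58 (SE 0.197, edgeR adjusted p = 0.543). With PBS it gave 0% of all genes (631 at an unadjusted p under 0.05, 6 calls by DESeq2 and 0 by limma-voom), and *Dntt* had 2.13 (edgeR adjusted p = 0.966). With Ang II it gave 0% of all genes (975 at an unadjusted p under 0.05, 2 calls by DESeq2 and 0 by limma-voom), and *Dntt* had 1.35 (edgeR adjusted p = 0.647). None of the 7 genes was called by edgeR with either infusion. At an unadjusted p under 0.05 by edgeR were 5 of the 7 over both infusions, 5 with PBS and 1 with Ang II.

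Deficient and heterozygous HPC-1 were closer to each other. Averaged over both infusions edgeR called 0% of all genes and 0 of the 7, with 330 genes at an unadjusted p under 0.05 and 0 calls by DESeq2 and by limma-voom, and *Dntt* had a log2 fold change of 0.83 (SE 0.362, edgeR adjusted p = 1.0). With PBS it called 0% of all genes, with 151 at an unadjusted p under 0.05, and with Ang II 0% of all genes, with 375 at an unadjusted p under 0.05, again with 0 calls by DESeq2 and by limma-voom and 0 of the 7 genes called.

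Infusion of Ang II was not followed by a called change of any early lymphoid gene in HPC-1. Averaged over the 3 genotypes edgeR called 0% of all genes and 0 of the 7, with 424 genes at an unadjusted p under 0.05, 3 calls by DESeq2 and 0 by limma-voom. *Dntt* had a log2 fold change of −0.29 (SE 0.32), *Satb1* of 0.07 (SE 0.117) and *Notch1* of 0.08 (SE 0.153, edgeR adjusted p = 1.0 for each). In intact mice edgeR called 0% of all genes (420 at an unadjusted p under 0.05, 1 call by DESeq2 and 0 by limma-voom) and 0 of the 7. In heterozygous mice it called 0% of all genes (519 at an unadjusted p under 0.05, 4 calls by DESeq2 and 0 by limma-voom) and 0 of the 7. In deficient mice it called 0% of all genes (244 at an unadjusted p under 0.05, 1 call by DESeq2 and 0 by limma-voom) and 0 of the 7. The average pools genotypes whose numerical directions differed. With Ang II, 6 of the 7 were higher in intact mice (median log2 fold change 0.29), 0 in heterozygous (−0.581) and 2 in deficient mice (−0.473). In the same order, 0, 1 and 0 of the 7 were at an unadjusted p under 0.05 by edgeR.

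Across the 19 HPC-1 libraries some genes varied much as these did, given here as a description over libraries that share genotype groups, infusion groups and depth. The genes with the highest Pearson correlation of log2 CPM with *Dntt* were *Cmah* (r = 0.911), *Rgl1* (r = 0.896) and *Gimap6* (r = 0.871). With *Satb1* they were *Flt3* (r = 0.955), *Gimap6* (r = 0.931) and *Rgl1* (r = 0.882). With *Notch1* they were *Dusp2* (r = 0.903), *Zfp697* (r = 0.844) and *Flt3* (r = 0.832). For *Rag2*, which is near the floor, they were *2310058D17Rik* (r = 0.861), *Dzip1* (r = 0.857) and *Gm4841* (r = 0.854), all of them weak measures at such counts. Among the early lymphoid genes themselves *Dntt* and *Satb1* had r = 0.868, *Dntt* and *Notch1* r = 0.795, and *Satb1* and *Notch1* r = 0.814, while *Dntt* and *Mpo*, the myeloperoxidase gene, had r = −0.608.

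The promoters of *Dntt* and *Notch1* are shown because both genes were called between the cell types while their levels in LT-HSC were far apart, *Dntt* near 0 and *Notch1* well above the floor. The windows are the 250 bases before the RefSeq transcript start in GRCm38.p6, at chr19:41029025-41029274 on the plus strand and chr2:26503823-26504072 on the minus strand, and the *Notch1* start lies inside the GENCODE gene. Capitals mark CANNTG, the E-box letters that E proteins such as Tcf3 bind.
Dntt: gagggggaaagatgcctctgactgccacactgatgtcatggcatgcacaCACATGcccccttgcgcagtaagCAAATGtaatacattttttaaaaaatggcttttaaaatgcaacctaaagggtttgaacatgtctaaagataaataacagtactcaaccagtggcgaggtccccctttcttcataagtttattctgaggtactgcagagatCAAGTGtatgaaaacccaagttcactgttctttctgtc
Notch1: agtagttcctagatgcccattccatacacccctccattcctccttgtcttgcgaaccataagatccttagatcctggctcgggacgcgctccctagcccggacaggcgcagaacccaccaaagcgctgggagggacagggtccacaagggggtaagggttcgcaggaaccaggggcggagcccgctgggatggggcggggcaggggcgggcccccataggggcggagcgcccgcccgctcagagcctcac

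The *Dntt* window was 41.6% G and C with 2 CG pairs and held 3 CANNTG matches, which begin 201, 178 and 38 bases before the start. The *Notch1* window was 66.0% G and C with 16 CG pairs and held none. Over all 32851 promoter windows of the same length the median was 52.4% G and C and 6 CG pairs. CANNTG, searched on both strands, was found in 66.2% of them, so a match is common, and TATAAA, the letters of a TATA box, in 12.4%. CACCTG, a special case of CANNTG, was found in 17.2%. All 9 genes had a RefSeq promoter, with 5 windows for *Satb1* and 13 in all, and TATAAA was in none of the 13.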

How the data were processed

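Gene-level expected counts, which the authors made from stranded total RNA libraries and deposited as whole numbers, were used without further rounding. The submitters' processing notes name Bowtie2, RSEM 1.2.31, DESeq2 and mm10, while the study's methods name STAR and another RSEM version, so the aligner and the RSEM version are uncertain. Symbols came from an annotation table that matched 37570 of 38887 identifiers. Counts were tested in R 4.3.3 with edgeR 4.0.16 (TMM, filterByExpr, robust quasi-likelihood fit on group means), with Benjamini-Hochberg adjustment over all genes tested and a threshold of 0.05. Cell types were compared in 1 model of 36 libraries (18013 genes), and genotypes and infusions in a model of 17 LT-HSC libraries (16365 genes) or 19 HPC-1 libraries (13199 genes). PBS intact LT-HSC, with 1 library, was in the model of 36 libraries and in that of LT-HSC, and set the smallest group size of their filters. Among the contrasts it entered only the alternative mean over all 6 conditions. Alternatives were DESeq2 1.42.0, limma-voom (limma 3.58.1), upper-quartile scaling, other filters, thinning, a Y-linked covariate, a replicate block, only the compared groups, other sets of conditions and left-out libraries. The mean without the Ang II-infused intact condition was chosen after seeing the data.

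The 9 genes and all lists were chosen with earlier results of these data known. The lists were lymphoid priming, early B lineage, early T lineage, Notch pathway, IL-7 receptor signaling, end joining and thymus homing, and, as markers, LT-HSC, HPC-1, mature B and plasma cell, T and NK cell, plasmacytoid dendritic cell, neutrophil and monocyte, erythroid and intestinal epithelium. Named were all 9 genes, up to 4 called genes of each list with the largest cell type difference (not every one of these is shown), any list gene called within a cell type, *Il27ra*, and the 3 genes most correlated with each early lymphoid gene of sufficient count. *Flt3* between genotypes, 3 lower lymphoid priming genes and single genes of marker lists were named after their values were seen. Scripts were tested on simulated data. No replicate pair was alike within sampling noise.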

Additional observations from a re-analysis of the deposited data

Results flagged for a closer look

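The 4 groups of 4 libraries were examined for each early lymphoid gene with enough counts, 27 sets of values in all, and 3 sets held a library that lay far from the other 3, judged by its gap to the nearest library as a share of the range. Chance flags about 1 in 20 groups of normally distributed values, and these sets share libraries, so they are not independent. That rate does not hold for sets of very low counts, such as those of *Il7r* and *Rag2* here. A set with a count in only 1 library, as for *Rag2*, is always flagged. *Il7r* was at 1.73 CPM in Ang II-infused deficient LT-HSC replicate 2, the library with high neutrophil and erythroid markers, and at 0.205 CPM or less in the others of its group, a value of 4 counts. *Rag2* was at 1.47 CPM in Ang II-infused heterozygous LT-HSC replicate 3 and at 0 in the others of its group. *Notch1* was at 93.6 CPM in Ang II-infused heterozygous LT-HSC replicate 2 and at 71.7 to 75.3 CPM in the others.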

How the results depend on the processing

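The settings were 12 alternatives and 51 refits that each left out 1 library. Of 1532 recomputed log2 fold changes 1446 kept sign and call, 44 lost the call, 31 gained it and 11 reversed. Of the 44, those of *Hes1* and *Il7* came from refits without a usable estimate (SE 5740 and 24.2). Of 534 recomputed counts of early lymphoid genes past the threshold 481 were identical, 14 changed by no more than 1.5-fold and 39 changed by more, or from or to 0. Wherever a call changed, the cause was not tested. Refits of the joint model without single HPC-1 libraries were not run.

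All 11 reversals were of *Ccr9* between HPC-1 and LT-HSC, at 0.04 otherwise. Its log2 fold change was −0.0289 with DESeq2, −0.014 with upper-quartile scaling, −0.0264 with limma-voom, −0.203 after thinning, −0.0264 without the 3 doubted LT-HSC libraries and −0.159 without the Ang II-infused intact condition. It was −0.0738 without PBS heterozygous replicate 3, −0.00662 without PBS deficient replicate 1, −0.155 without Ang II intact replicate 2 and −0.0245 without Ang II deficient replicate 4, and leaving out single LT-HSC libraries gave −0.155 to 0.932.

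Leaving out single LT-HSC libraries gave log2 fold changes between the cell types of 6.88 to 7.80 for *Dntt*, 3.59 to 4.16 for *Satb1*, 0.839 to 1.00 for *Notch1*, 2.89 to 4.25 for *Rag2*, 2.49 to 3.05 for *Il7r* and 2.06 to 2.60 for *Rag1*. The alternatives gave 6.11 to 7.93, 3.47 to 4.28, 0.777 to 1.01, 2.55 to 4.13, 1.94 to 3.26 and 1.28 to 2.52 in the same order. The *Thy1* call was also lost with a Y-linked covariate (0.745, adjusted p = 0.113), and that of *Lig4* over all 6 conditions (0.793, adjusted p = 0.0609).

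Of the 7 tested genes, 6 were called between the cell types, 5 to 6 with single libraries left out, 5 without the Ang II-infused intact condition, and 3 with a mean count of at least 10, which leaves the low genes untested. In parentheses below is the count over all genes for the setting named before it. In PBS heterozygous mice 3 were called (1382), 4 with limma-voom (1892) and 2 to 3 with libraries left out. In PBS deficient mice 0 were called (159), 2 without a filter (725), 4 without the 3 doubted libraries and 0 to 4 with single libraries left out. In Ang II intact mice 2 were called (1868) and 0 with limma-voom (1201). In Ang II heterozygous mice it was 3 throughout the refits (2676 before any refit). In Ang II deficient mice 3 were called (2257), 5 without a filter (2473), 5 with the Y-linked covariate and 5 with limma-voom (3206). There it was 4 with DESeq2 (2721), 4 after thinning or without the doubted libraries, and 3 to 4 with single libraries left out.

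Without a filter, where all 9 genes are tested, the count rose from 0 to 2 for each of the 2 changes of the cell type difference, beside 113 and 159 of all genes (0 otherwise). In LT-HSC it was 1 for Ang II deficient against intact (833 of all genes), 2 for PBS deficient against heterozygous (193), 2 for Ang II against PBS in deficient mice (104), 2 for Ang II against PBS over both genotypes (83) and 3 for deficient against heterozygous over both infusions (361). Without both the filter and PBS deficient replicate 2 it was not run. In HPC-1 it was 1 for Ang II deficient against intact (30 of all genes), 2 for PBS deficient against intact (52), 3 for deficient against intact over both infusions (154) and 1 for heterozygous against intact over both (72). DESeq2 gave 1 for PBS deficient against intact HPC-1 (25 of all genes), 4 for deficient against intact over both infusions (91) and 1 for heterozygous against intact over both (27). For deficient against intact over both infusions, upper-quartile scaling, the Y-linked covariate, limma-voom and thinning gave 2 each, and leaving out single libraries gave 0 to 3, where it was 3 without Ang II deficient replicate 3 and 0 without 9 others. Other comparisons within a cell type stayed at 0.

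The labels do not say whether equal replicate numbers are 1 mouse, and these data do not settle the pairing. Of 16 HPC-1 libraries 10 correlated best with the LT-HSC library of their own number, where 5 would by chance. Such pairs had a median residual correlation of 0.212 (−0.33 to 0.512). Equal numbers across conditions had 0.0382 in HPC-1 and 0.144 in LT-HSC and are no baseline. With a replicate block, *Ccr9* was at −0.145, *Rag1* lost its call (2.16, adjusted p = 0.099) and left 5 calls between the cell types, Ang II intact mice had 1 call, and *Dntt* between deficient and intact HPC-1 was 2.53 (adjusted p = 0.0919). There *Satb1* gained a call (0.723, edgeR adjusted p = 0.0347). All-gene counts with the block against without it were 229 and 159 in PBS deficient mice, 1089 and 1868 in Ang II intact mice, 97 and 277 for deficient and 39 and 136 for heterozygous against intact Ang II-infused LT-HSC, 5 and 1 for deficient against heterozygous LT-HSC, 7 and 2 for PBS deficient against intact HPC-1, and 38 and 22 for deficient against intact HPC-1. In HPC-1 the block also gave 7 calls for Ang II against PBS in heterozygous mice, 1 in deficient mice and 2 over all genotypes, and 2 for heterozygous against intact with PBS and 2 over both infusions, where there were 0 without it.

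Over the alternatives the all-gene counts ran from 5939 to 6927 (6543 otherwise) between the cell types, from 1185 to 2144 (1382) in PBS heterozygous, from 0 to 1508 (159) in PBS deficient, from 611 to 2554 (1868) in Ang II intact, from 2182 to 3208 (2676) in Ang II heterozygous and from 2104 to 3206 (2257) in Ang II deficient mice. Those of LT-HSC ran from 32 to 833 (277) for Ang II deficient against intact, from 37 to 496 (136) for heterozygous against intact and from 0 to 361 (1) for deficient against heterozygous over both infusions. Those of HPC-1 ran from 20 to 154 (22) for deficient against intact, from 0 to 72 (0) for heterozygous against intact and from 2 to 52 (2) for PBS deficient against intact. In deficient against intact HPC-1, edgeR called 7 genes higher and 15 lower (31.8% higher) and DESeq2 48 and 43 (52.7% higher).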
